A study of Homo sapiens with 9 samples.

Results

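The genes described here encode the proteins of the cytosolic ribosome. They were chosen by symbol, as RPL or RPS followed by a number with an optional A, X or L, together with RPSA, RPLP0, RPLP1, RPLP2 and RPL36AL, and without RPS6K genes, Y-linked copies and pseudogenes. This gave 82 of the 60683 genes in the count table, 32 of the small subunit and 50 of the large subunit. RNA-seq was performed on 9 cultures of an established human liver cancer line, Hep3B, harvested after 24 hours. One group of 3 cultures received vehicle (DMSO) at 20% O2 (normoxia), a second group of 3 received vehicle at 1% O2 (hypoxia), and the last group of 3 received 32-134D, a small molecule described as an inhibitor of hypoxia-inducible factors (HIFs), at 1% O2. All 9 cultures were the same unmodified line, the dose of 32-134D is not given in the labels, and 32-134D was not sequenced at 20% O2, so its effect could be measured in hypoxia alone.

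A ribosome joins a small subunit, which reads the mRNA, to a large subunit, which forms peptide bonds, and nearly every ribosomal protein is needed in a single copy per ribosome. The mRNAs of these proteins are abundant and short in growing cells and begin with a run of pyrimidines, the 5′ terminal oligopyrimidine (TOP) motif, through which mTORC1 signaling and the LARP1 protein control their translation and stability. Hypoxia is known to lower mTORC1 activity and protein synthesis, and ribosome production is among the costliest tasks of a dividing liver cancer cell.

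The start of the mRNA is shown here because the TOP motif lies there, for the 5 members with the largest rise in hypoxia, for 4 others with a large change or a paralog described below, and for 4 with the smallest changes. RefSeq windows (GRCh38.p14) of 10 bases before the annotated start and 20 bases from it were found for 65 of the 82 genes, and in each the capitals mark the run of C and T, counted from at most 5 bases before the start, that covers the first transcribed base or ends just before it. RPL39, RPS25, RPL17, RPL37A and RPL10 rose most in hypoxia, and RPL13A, RPLP1, RPS16 and RPS27 also rose.
RPL39 (chrX:119791611-119791640, minus strand): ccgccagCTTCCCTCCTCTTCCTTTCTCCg
RPS25 (chr11:119018324-119018353, minus strand): gcagcgCTTCCTTTTTgtccgacatcttga
RPL17 (chr18:49492446-49492475, minus strand): ttccctaagCagcctgaggtgagtgtttct
RPL37A (chr2:216498834-216498863, plus strand): gcgtcTCTTCCTTTCTgggctcggacctag
RPL10 (chrX:154398055-154398084, plus strand): ccactctcagaaatatacgtctgtcacagt
RPL13A (chr19:49487598-49487627, plus strand): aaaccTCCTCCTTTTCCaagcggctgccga
RPLP1 (chr15:69452808-69452837, plus strand): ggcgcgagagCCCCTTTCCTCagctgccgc
RPS16 (chr19:39435930-39435959, minus strand): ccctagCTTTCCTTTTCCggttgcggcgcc
RPS27 (chr1:153990752-153990781, plus strand): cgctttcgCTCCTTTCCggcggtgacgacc
RPL22, RPL36A, RPL3 and RPS27L had the smallest changes.
RPL22 (chr1:6199576-6199605, minus strand): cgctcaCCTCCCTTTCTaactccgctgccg
RPL36A (chrX:101391001-101391030, plus strand): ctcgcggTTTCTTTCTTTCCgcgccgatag
RPL3 (chr22:39319604-39319633, minus strand): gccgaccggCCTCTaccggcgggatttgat
RPS27L (chr15:63157458-63157487, minus strand): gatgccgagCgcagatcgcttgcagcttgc
Neither set shared one kind of annotated start, and a run that begins further downstream was not counted. The run was 11 bases long in RPL22 and 13 in RPL36A, but 5 in RPL3 and 1 in RPS27L. It was 22 in RPL39, 10 in RPS25, 11 in RPL37A and 12 in RPL13A, but 1 in RPL17 and 0 in RPL10.

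A run of at least 5 pyrimidines covered the first base or ended just before it in 46 of the 65 matched genes (70.8%), against 18.2% of 35116 RefSeq promoters. The first base was C in 47 of the 65 (72.3%, against 14.7%), and both held in 45 (69.2%, against 7.32%). The median run was 10 bases, against 2 in all promoters. In the 300 bases around the start, searched on both strands, CCGGAAG was found in 33.8% of the members and 10.3% of all promoters, CTTTCC in 46.2% and 26.3%, AAGATGG in 12.3% and 5.84%, and GGGCGG in 56.9% and 45%. The HIF core motif ACGTG was found in 29.2% of the members and 21.4% of all promoters, and CACGTG, the E-box bound by MYC, which contains ACGTG, in 4.62% and 7.26%. These are matches of letters and not sites of binding.

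The 9 libraries held 6013980 to 40549699 counts, and the 22672 genes whose counts summed to at least 10 were tested. Of the ribosomal protein genes 80 were tested. RPL3L and RPL10L, copies known from muscle and testis, had 0 counts in every library, which allows up to 3 counts per library. ALB, SERPINA1 and HNF4A, markers of the hepatocyte lineage, were at 5948 to 10210, 1793 to 2622 and 334.6 to 418.5 CPM over the libraries (counts scaled to a common library size). Other markers of that lineage varied more. APOB ran from 377.5 to 5256, TF from 584 to 2288 and APOA1 from 227.2 to 604.9 CPM. AFP ran from 85.98 to 239.2 and TTR from 9.787 to 56.9 CPM. The leukocyte marker PTPRC never exceeded 3 counts, and the endothelial marker PECAM1 never exceeded 28. The fibroblast markers COL1A1 and PDGFRB were at 2.731 to 10.38 and 9.436 to 29.29 CPM. In each group 1 library stood apart from the others. Replicate 1 of vehicle at 20% O2 held more ribosomal protein mRNA than replicates 2 and 3, replicate 1 of vehicle at 1% O2 held less than the others of its group, and replicate 3 of 32-134D differed from replicates 1 and 2 by a chi-square per degree of freedom of 36.4 and 32.5, against 2 between those libraries. For replicate 1 these values were 6.21 and 12 in vehicle at 20% O2, against 1.62 between replicates 2 and 3, and 7.9 and 11.8 in vehicle at 1% O2, against 2.48. The results are given with and without these libraries where leaving them out mattered.

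The ribosomal protein mRNAs took a larger share of all counts at 1% O2 than at 20% O2, and a smaller share again with 32-134D. In vehicle at 20% O2 they took 3.43%, 2.82% and 2.73% of the counts in replicates 1 to 3. In vehicle at 1% O2 the shares were 4.07%, 4.45% and 4.54%, all above those at 20% O2. With 32-134D at 1% O2 they were 3.36%, 3.30% and 3.59%, below every vehicle library at 1% O2 and overlapping replicate 1 at 20% O2. The group means were 2.99 ± 0.38%, 4.36 ± 0.251% and 3.42 ± 0.153% (SD, n = 3). A share is relative to all other mRNAs of the library, and more ribosomal protein mRNA per cell cannot be told apart from less of other mRNAs. Mitochondrially encoded genes took 3.83% to 4.58% of the counts, and without them the mean shares were 3.12%, 4.56% and 3.57%. The ratio of small-subunit to large-subunit counts was 0.656 ± 0.00507 at 20% O2, 0.671 ± 0.00321 at 1% O2 and 0.649 ± 0.016 with 32-134D.

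**Figure D1:**
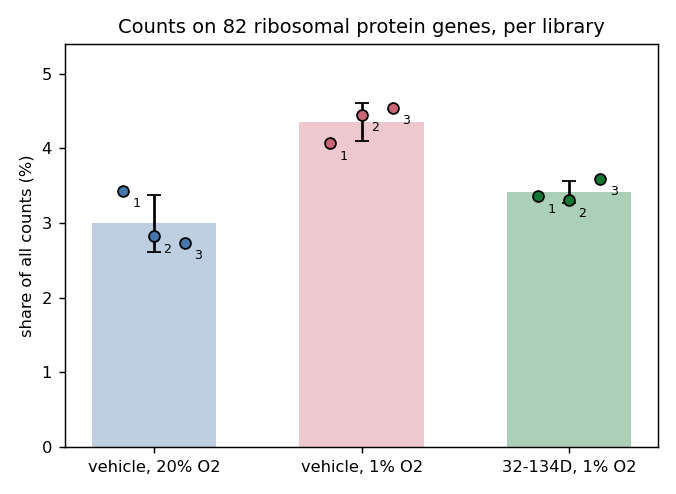
Share of all counts that fell on the 82 ribosomal protein genes, in percent, for each library (points, numbered by replicate), with the group mean (bar) and SD (error bar, n = 3). The 3 libraries of vehicle at 1% O2 lie between 4.07% and 4.54%, above the other 6, which lie between 2.73% and 3.59%.

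The hypoxia comparison, vehicle at 1% O2 against vehicle at 20% O2, asked how the mRNAs of the cell responded to low O2. Counts were scaled by TMM, a method that assumes that most genes do not change, and tested with edgeR. Of the 80 tested ribosomal protein genes, 77 rose with a false discovery rate (FDR, Benjamini-Hochberg over all tested genes) below 0.05, when 27.9% of all tested genes did so. Of these, 69 rose by more than 1.5-fold (19.5% of all genes). In 76 of the 80 the 3 hypoxic libraries all lay above the 3 normoxic ones (32.3% of all genes). None fell, with or without the fold threshold, although 20.3% and 25.6% of all genes did, and also at an unadjusted p below 0.05, or with DESeq2, the count was 0. The median change was 0.76 on the log2 scale, or 1.69-fold, when the median of all tested genes was 0.00. Without replicate 1 of vehicle at 20% O2, 72 members rose past both thresholds (18.3% of all genes) and the median was 0.82, and without replicate 1 of vehicle at 1% O2 the median was 0.81.

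**Figure D2:**
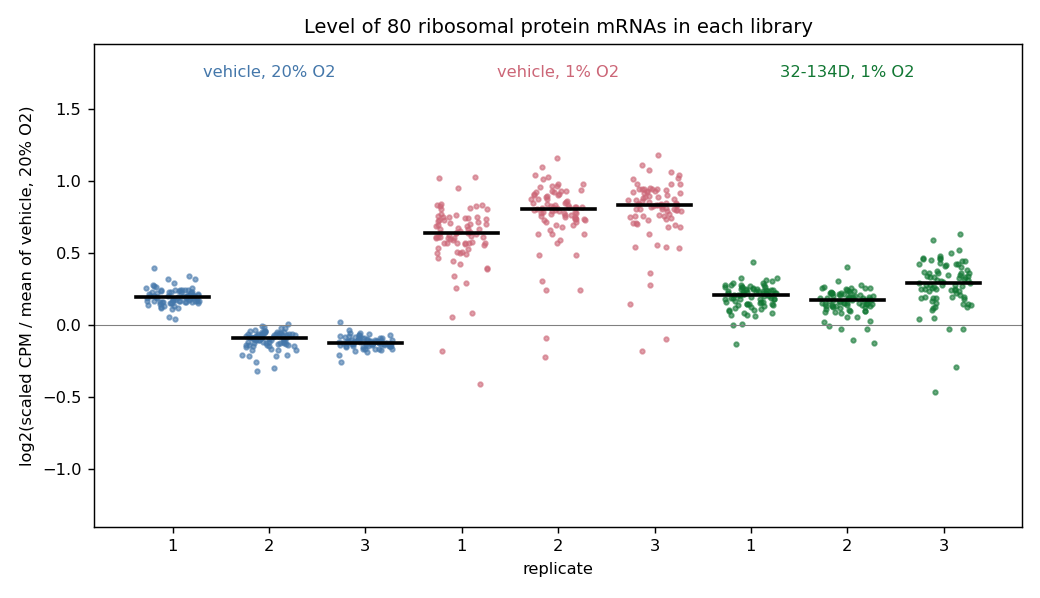
Level of each of the 80 tested ribosomal protein mRNAs (points) in each library, as log2 of its TMM-scaled CPM over its mean in vehicle at 20% O2, with the median of the 80 in each library (line). The hypoxic vehicle libraries lie highest, replicate 1 of vehicle at 20% O2 lies above replicates 2 and 3, and RPS27L and RPL36A are among the few points that stay near or below 0 at 1% O2.

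The sizes of these changes depended on the scaling. When libraries were scaled by their total counts, the median of all tested genes moved to −0.21 and that of the ribosomal protein genes to 0.54. Then 75 still rose at FDR below 0.05 (21% of all genes), but 29 rather than 69 by more than 1.5-fold (13.6%).

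RPS25, a small-subunit protein used in initiation at internal entry sites, showed the largest rise of its subunit. Its TMM-scaled CPM was 221, 174 and 171 in the normoxic libraries, 364, 404 and 408 in the hypoxic ones, and 231, 228 and 253 with 32-134D. Every hypoxic vehicle library lay above every other. RPS25 rose by 1.06 ± 0.0966 (log2 ± SE) in hypoxia (FDR 2.92e-07) and fell by 0.72 ± 0.0953 with 32-134D (FDR 1.93e-05). RPL39, a small protein of the exit tunnel of the large subunit, had the largest rise of all members, from 21.2, 14.6 and 15.2 CPM to 34.4, 37.9 and 38.4, and stood at 23.0, 21.0 and 22.6 with 32-134D. It rose by 1.11 ± 0.124 in hypoxia and fell by 0.73 ± 0.117 with 32-134D. RPL39 was counted on 93 to 1297 reads per library, and 19 pseudogenes named after it held 18.3% as many counts as the gene, so that its value is less certain than that of RPS25.

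RPL17 and RPL37A, both of the large subunit, and RPL10, which joins the large subunit late and takes part in readying it for translation, completed the 5 largest rises. RPL17 went from 23.8, 23.1 and 22.7 CPM to 47.2, 47.7 and 49.0, a rise of 1.05 ± 0.092. As 82.6% of its exon bases overlap those of a read-through gene and a small nucleolar RNA gene on the same strand, reads may have been left uncounted or split. RPL37A went from 538, 428 and 429.6 CPM to 830.1, 947 and 970 and stood at 563, 543 and 572 with 32-134D. Its rise was 0.98 ± 0.0929 in hypoxia and its fall was 0.71 ± 0.0922 with 32-134D. RPL10 rose by 0.97 ± 0.0956, from 381, 308 and 325 CPM to 605, 682 and 695.

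RPL13A, which is also widely used as a reference gene for quantitative PCR, changed like the rest. It stood at 1085, 878 and 819.6 CPM in normoxia, at 1559, 1746 and 1786 in hypoxia, and at 1084, 1056 and 1152 with 32-134D. The hypoxic vehicle libraries lay above all others, and the normoxic and 32-134D libraries overlapped. Its rise of 0.87 ± 0.0971 was 1.83-fold (FDR 2.26e-06), and its fall of 0.63 ± 0.0966 with 32-134D left 0.647 of the vehicle level (FDR 7.76e-05). The paper, by quantitative PCR in Hep3B cells, reported no effect of its compounds on RPL13A and described the gene as not induced by hypoxia. Those values were scaled to ribosomal RNA, so the measures differ, and the reason for the difference was not tested.

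Groups of ribosomal proteins with different roles moved together. Of all tested genes 27.9% rose in hypoxia and 25.5% fell with 32-134D at FDR below 0.05. Past 1.5-fold as well, the shares were 19.5% and 13.7%. Of the small-subunit genes 31 of 32 rose in hypoxia and 30 fell with 32-134D at FDR below 0.05, with medians of 0.76 and −0.56, and of the large-subunit genes 46 of 48 rose and 45 fell, with medians of 0.76 and −0.52. The 3 proteins of the stalk, which recruits elongation factors, all rose past both thresholds in hypoxia (median 0.82) and fell past both with 32-134D (median −0.61). RPLP0 went from 918, 766 and 746 CPM to 1332, 1471 and 1502, and to 949, 911 and 970 with 32-134D. RPLP1 rose by 0.89 ± 0.0862 and fell by 0.69 ± 0.0856, and RPLP2 rose by 0.72 ± 0.0919 and fell by 0.60 ± 0.0915. RPL5, RPL11 and RPL23, which bind and inhibit MDM2 when ribosome assembly fails, rose by 0.84 ± 0.095, 0.72 ± 0.0873 and 0.86 ± 0.0873 in hypoxia. With 32-134D they fell by 0.52, 0.54 and 0.51, within the FDR threshold but short of 1.5-fold. Of 17 genes mutated in Diamond-Blackfan anemia, all rose at FDR below 0.05, 14 by more than 1.5-fold, with a median of 0.75. The largest rise was in RPS29 (0.90) and the smallest in RPS26 (0.47). With 32-134D 16 fell, but only 3 of them by more than 1.5-fold. All 8 proteins that line the mRNA channel rose, from 0.47 for RPS26 to 0.88 for RPS3 with a median of 0.73, and all 8 fell with 32-134D. Of the 9 proteins around the exit tunnel 8 rose (median 0.81) and 8 fell with 32-134D, and RPL22 (0.15 ± 0.122, FDR 0.327) did not pass the test.

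**Figure D3:**
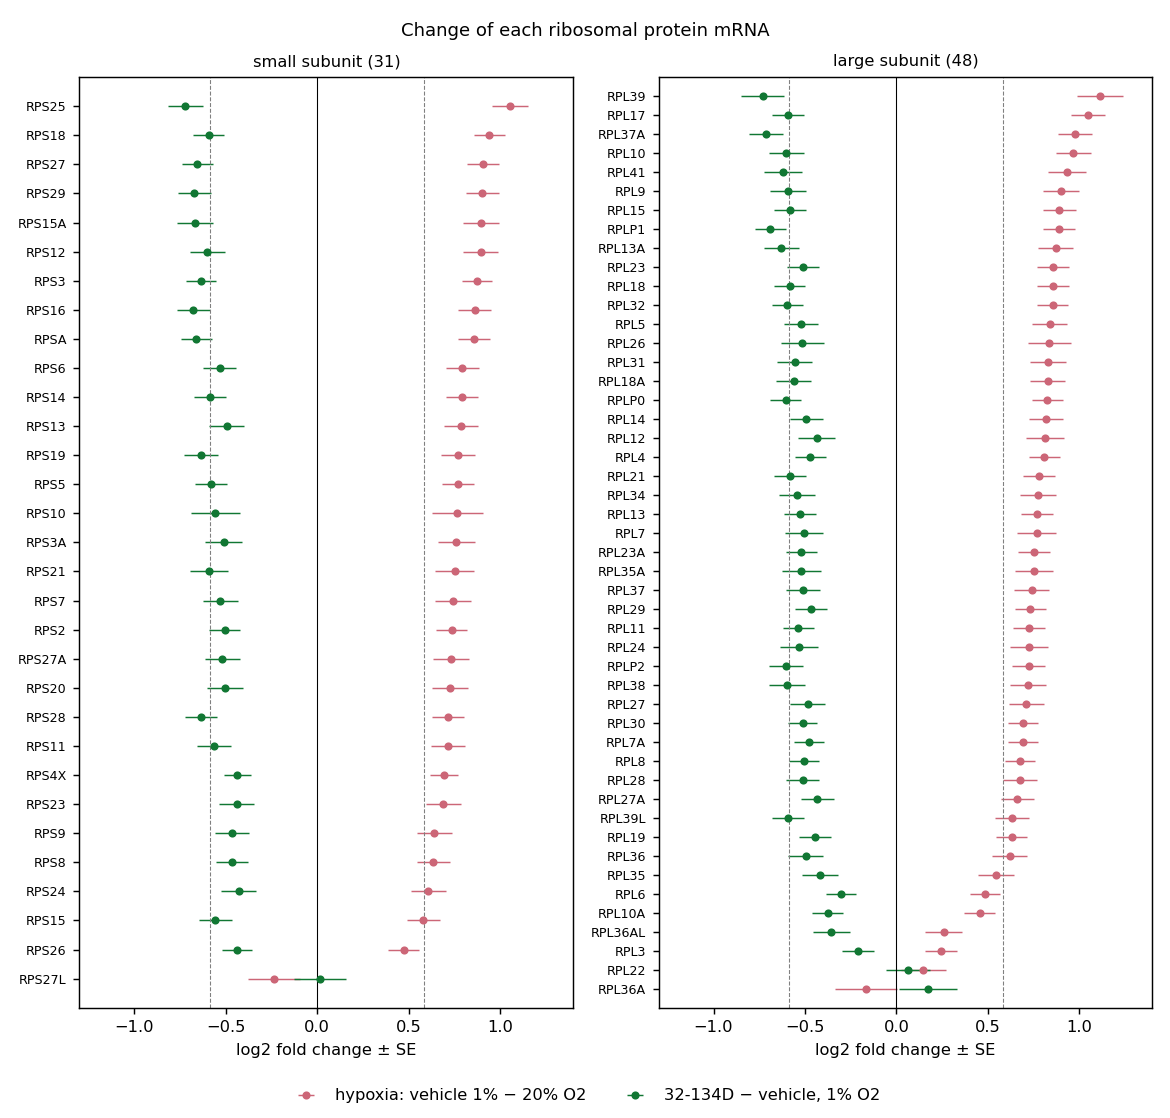
Log2 fold change of ribosomal protein mRNAs (points) with the SE (bars) in hypoxia (red) and with 32-134D (green), for 31 small-subunit and 48 large-subunit genes in order of their change in hypoxia. The dashed lines mark 1.5-fold; most genes lie near 0.76 in hypoxia and near −0.53 with 32-134D, and RPS27L, RPL36A, RPL22 and RPL3 lie apart.

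The changes of the members lay close to each other. In hypoxia 69 of the 80 lay within 0.25 of the median, and the middle 50% spanned 0.168, from 0.69 to 0.85, when the middle 50% of all tested genes ran from −0.81 to 0.66. With 32-134D 76 lay within 0.25 of the median, and the middle 50% spanned 0.118. The set of all tested genes also takes in genes with few counts, so its spread and its shares are not matched to the members by level. When each library had to hold 10 or more counts of a gene, 12912 genes remained. Of these, 36.5% rose in hypoxia and 33.8% fell with 32-134D at FDR below 0.05. In that setting 75 of the 80 members rose and 75 fell. The spread of genes matched by level was not tested. Across the 80 genes, which are not independent replicates, the change in hypoxia had a Spearman rho of −0.11 with transcript length and 0.13 with mean level. The median length was 660 bases, against 1122 for all tested genes, and with the trend over length and GC content removed the medians were 0.65 in hypoxia and −0.45 with 32-134D.

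**Figure D4:**
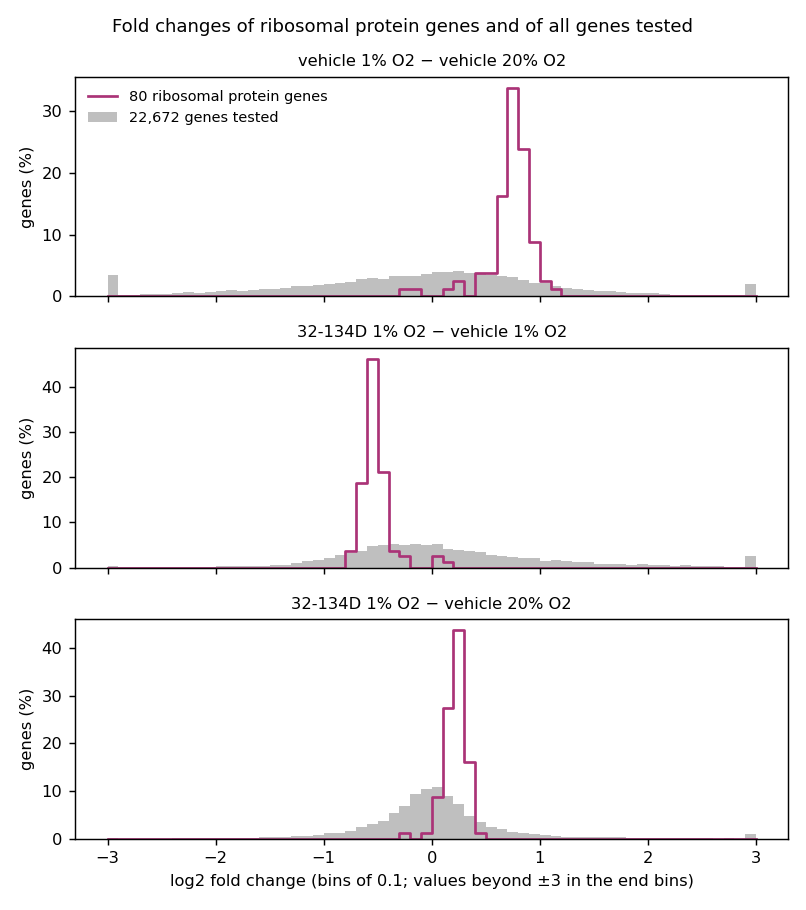
Distribution of log2 fold changes in the 3 comparisons, in bins of 0.1, as a percent of the 80 tested ribosomal protein genes (line) and of the 22672 tested genes (grey). The ribosomal protein genes form a narrow peak above 0 in hypoxia (median 0.76), below 0 with 32-134D (median −0.53), and above 0 by less in 32-134D against normoxia (median 0.23), while all genes spread around 0.

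A small set of members did not follow the rest. To compare members with each other, the libraries were also scaled by the summed counts of the ribosomal protein genes themselves, and a gene that moved with the rest then has a change of 0. On that scale RPL39 and RPS25 were higher in hypoxia at FDR below 0.05 (2 of 80, when 7.21% of all genes were higher). RPL10A, RPL22, RPL3, RPL36A, RPL36AL, RPL6, RPS26 and RPS27L were lower (8 of 80, when 51.2% of all genes were lower). RPL22, RPL3, RPL36A and RPS27L were higher with 32-134D (4 of 80, when 41.1% of all genes were higher).

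RPS27L, a paralog of RPS27 and a known p53 target, lagged furthest. It stood at 83.0, 58.4 and 54.8 CPM in normoxia, 49.4, 56.2 and 61.2 in hypoxia, and 59.6, 61.0 and 47.5 with 32-134D. The 3 groups overlapped. Its change in hypoxia was −0.24 ± 0.143 (FDR 0.179), and −0.98 relative to the ribosomal protein genes. Scaled by total counts it was −0.45, with an FDR of 0.0139.

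RPL3, a core protein near the peptidyl transferase center, was counted on many reads. Its CPM was 866, 767 and 769 in normoxia, 829.9, 990 and 1026 in hypoxia, and 801, 785 and 874 with 32-134D. Replicate 1 of vehicle at 1% O2 lay below replicate 1 of vehicle at 20% O2. The rise of 0.24 ± 0.0877 passed the FDR threshold (0.0285), but with total counts it was 0.03 with an FDR of 0.80, and relative to the ribosomal protein genes RPL3 was lower by 0.52. The FDR was also 0.0889 with DESeq2, and 0.104 to 0.163 on leaving out replicate 2 or 3 of either vehicle group. With 32-134D its change was −0.21 ± 0.0875 (FDR 0.0619), and the FDR was 0.0108 without replicate 1 of vehicle at 1% O2 and 0.00789 without replicate 3 of 32-134D.

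RPL22 binds RNA at the outer face of the large subunit. It stood at 57.0, 41.6 and 45.9 CPM in normoxia, 50.9, 57.0 and 53.2 in hypoxia, and 51.8, 50.2 and 66.5 with 32-134D, with the groups overlapping. Its change in hypoxia was 0.15 ± 0.122, which turned to −0.07 with total counts, and −0.60 relative to the ribosomal protein genes (FDR 0.000409). RPL36A was at 5.52, 3.77 and 4.23 CPM in normoxia, 3.98, 4.24 and 3.98 in hypoxia, and 4.77, 4.14 and 4.85 with 32-134D. Its change in hypoxia was −0.17 ± 0.17 (FDR 0.43). Of its exon bases 48.2% overlap the read-through gene RPL36A-HNRNPH2, so reads of RPL36A may have gone uncounted. For RPL22, 38.3% of the exon bases overlap another annotated gene on the same strand.

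The comparison of 32-134D with vehicle at 1% O2 asked what the compound changed in hypoxic cells. It shares the hypoxic vehicle libraries with the comparison above, so that a high value in them raises one change and lowers the other, and the values are given side by side without a correlation. With 32-134D 75 of the 80 ribosomal protein genes fell at FDR below 0.05, when 25.5% of all genes did. Past the fold threshold of 1.5 the number was 25 (13.7% of all genes). That threshold, 0.58 on the log2 scale, lay close to the median of the members. In 76 members every 32-134D library lay below every vehicle library at 1% O2 (30.8% of all genes). None rose, with or without the fold threshold, when 16.2% and 21.9% of all genes did, and the count was also 0 at an unadjusted p below 0.05 and with DESeq2. The median change was −0.53, or 0.693-fold, against −0.01 for all tested genes.

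The number of members past 1.5-fold was not a firm one. It was 9 with DESeq2 (10.7% of all genes) and ran from 4 without replicate 3 of vehicle at 1% O2 (11%) to 40 without replicate 1 of that group (13.2%). Leaving out one of the 32-134D libraries 1, 2 and 3 in turn gave 11, 16 and 33 (11.7%, 13.1% and 14.1% of all genes), and leaving out replicate 2 of vehicle at 1% O2 gave 16 (12.6%). The 4, 9 and 11 of 80 are below the share of all genes or close to it. Scaled by total counts it was 0 (8.15% of all genes), with a median of −0.34 when the median of all genes moved to 0.17. The number that fell at FDR below 0.05 stayed between 70 and 77 in all these settings, when 17.4% to 27.6% of all genes did so.

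RPL39, RPS25, RPL37A, RPLP1 and RPS16 fell most. RPLP1 was at 712, 821 and 816 CPM in vehicle at 1% O2 and at 496, 475 and 484 with 32-134D. RPS16, a small-subunit protein near the decoding site, was at 1083, 1235 and 1234 in vehicle and at 758, 742 and 721 with 32-134D, and fell by 0.68 ± 0.0894 (FDR 1.93e-05). The vehicle and 32-134D libraries were well apart for both genes. RPL36A (0.17 ± 0.16, FDR 0.401), RPL22 (0.06 ± 0.119, FDR 0.702), RPS27L (0.01 ± 0.14, FDR 0.946), and RPL3 were among the 5 that did not pass the test.

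The comparison of 32-134D at 1% O2 with vehicle at 20% O2 spans a change of both O2 and compound. Here 11 of the 80 members were higher at FDR below 0.05, when 7.81% of all genes were, and none passed 1.5-fold (3% of all genes). RPL10, RPL12, RPL14, RPL15, RPL17, RPL23, RPL4, RPL5, RPS18, RPS25 and RPS4X were the 11. In 26 members the 32-134D libraries all lay above the normoxic ones (17% of all genes). None was lower (2.44% of all genes), and at an unadjusted p below 0.05 edgeR called 55 higher and 0 lower. With DESeq2 also 0 were lower and 0 passed 1.5-fold. The median was 0.23, against 0.00 for all tested genes, and 78 of the 80 values were above 0.

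This count turned on the normoxic libraries. Without replicate 1 of vehicle at 20% O2, 64 members were higher at FDR below 0.05 (8.08% of all genes) and the median was 0.33, and without replicate 2 or replicate 3 of that group the count was 1 (5.03% and 4.98%). Leaving out the first 32-134D library gave 7 (6.96%), and DESeq2 gave 23 (9.65%). RPL17 had the largest value, at 29.1, 30.6 and 35.9 CPM with 32-134D against 23.8, 23.1 and 22.7 in normoxia (0.46 ± 0.0923, FDR 0.00565). RPS18, a small-subunit protein of the head, stood at 953, 909.8 and 1041 against 848, 729 and 704 (0.35 ± 0.0866, FDR 0.0193). RPL12, at the base of the stalk, stood at 316, 314 and 395 against 297, 247 and 243 (0.38 ± 0.103, FDR 0.0311). Without replicate 2 or 3 of vehicle at 20% O2 the FDR was 0.0994 and 0.111 for RPS18 and 0.139 and 0.148 for RPL12. For all 3 genes the groups did not overlap, and replicate 3 was the highest 32-134D library. RPS27L (−0.22 ± 0.143) and RPL36AL (−0.10 ± 0.103) had the lowest values, and neither passed the test.

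Several ribosomal proteins have a paralog, and some of these paralogs, though not all, can take the place of the parent in the ribosome. The log2 ratio of paralog to parent mRNA within a library does not depend on scaling. With 3 libraries against 3 the exact two-sided permutation test cannot go below 0.1, so none of the 18 ratios tested could reach 0.05, and the smallest Benjamini-Hochberg value was 0.12. RPS27L over RPS27 was −1.87, −2.13 and −2.14 in normoxia, −3.24, −3.18 and −3.10 in hypoxia, and −2.40, −2.35 and −2.78 with 32-134D. The 3 groups did not overlap, and the mean differed by −1.13 in hypoxia and by 0.66 with 32-134D (exact p = 0.1 for each). RPS27 went from 304, 255 and 241 CPM to 466, 508.5 and 526, and rose by 0.91 ± 0.0861 in hypoxia.

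RPL22L1, a paralog of RPL22 outside the symbol rule, rose in hypoxia like most members. Its ratio to RPL22 went up, when that of RPS27L to RPS27 went down. RPL22L1 stood at 20.6, 12.3 and 14.2 CPM in normoxia, 28.7, 30.2 and 32.1 in hypoxia, and 22.6, 21.9 and 29.6 with 32-134D. It rose by 0.93 ± 0.16 in hypoxia (FDR 0.000148). With 32-134D its change was −0.30 ± 0.149 and did not pass the test (FDR 0.117). Its log2 ratio to RPL22 went from −1.64 ± 0.15 to −0.82 ± 0.091 and to −1.19 ± 0.016 with 32-134D (SD, n = 3). RPL36AL, a paralog of RPL36A, had a higher level per kb of transcript than its parent, 119 against 6.35 CPM per kb over the 9 libraries. It stood at 99.4, 76.9 and 77.7 CPM in normoxia, 101, 100.3 and 103 in hypoxia, and 85.1, 83.1 and 69.2 with 32-134D. RPL39L, known from testis and some cancers, was at 36.2 CPM per kb against 63.2 for RPL39. Its CPM was 25.03, 21.8 and 21.4 CPM in normoxia, 33.7, 35.3 and 36.8 in hypoxia, and 24.1, 23.6 and 22.4 with 32-134D. It rose by 0.63 ± 0.0909 and fell by 0.59 ± 0.0874. RPL26L1 and RPL7L1, which are also outside the symbol rule, had changes in hypoxia of 0.22 ± 0.114 and 0.15 ± 0.0792, neither past the FDR threshold, and their ratios to RPL26 and RPL7 differed by −0.62 and −0.64 (exact p = 0.1 for each).

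**Figure D5:**
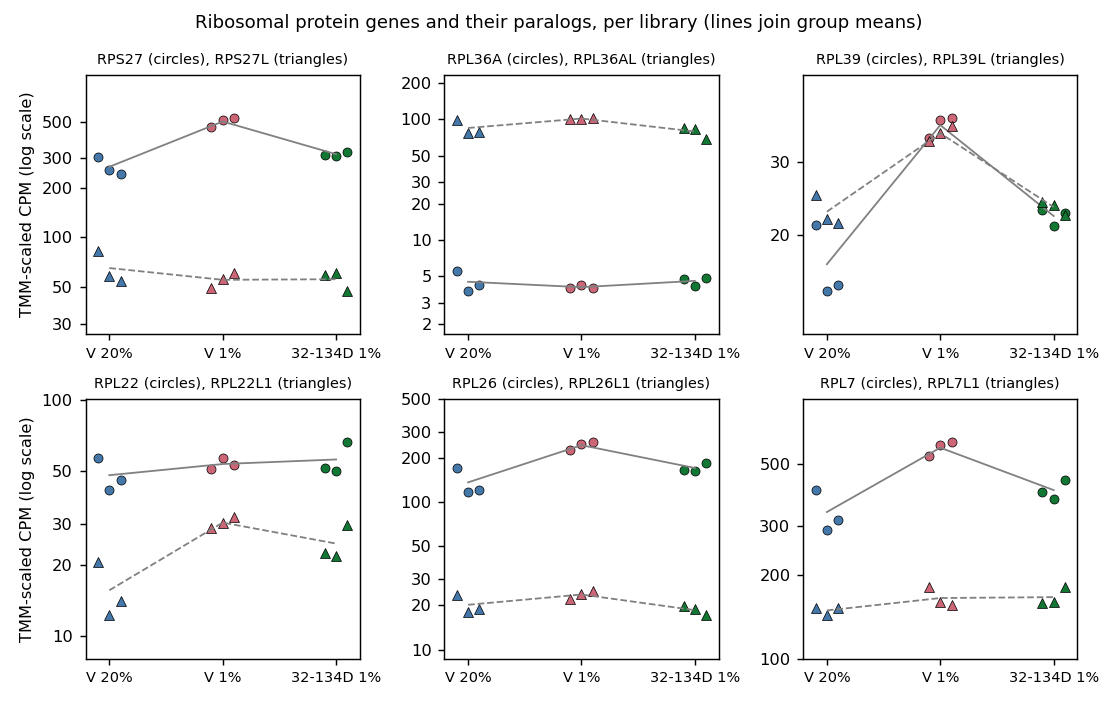
TMM-scaled CPM (log axis) of 6 ribosomal protein genes (circles) and their paralogs (triangles) in each library, with lines joining the group means (V, vehicle). In hypoxia RPS27, RPL26, RPL7 and RPL22L1 passed the test of a rise, and RPS27L, RPL26L1, RPL7L1 and RPL22 did not. RPL39 and RPL39L both passed, and RPL36AL passed narrowly (FDR 0.0464) when RPL36A did not.

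Levels per kb of transcript spanned a wide range among the members, although nearly every ribosomal protein is needed in a single copy per ribosome. RPS18 was highest, at 1805 CPM per kb over the 9 libraries, followed by RPS16 at 1745 and RPL4 at 1678. The value of RPL4, a long protein, rests on an annotated transcript of median length of 569 bases and may be too high. RPL36A at 6.35 and RPL39L at 36.2 CPM per kb were among the lowest, and the count of RPL36A may be low because of the overlap given above. Each belongs to a paralog pair described above, so its level need not match that of genes without a paralog.

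Genes that share a role or the TOP motif with the ribosomal protein genes but fall outside the symbol rule were also followed. FAU encodes a ribosomal protein fused to a ubiquitin-like protein. It was at 283, 229 and 233 CPM in normoxia, 349, 393 and 406 in hypoxia, and 273, 270.3 and 265 with 32-134D. FAU rose by 0.62 ± 0.0872 and fell by 0.51 ± 0.0865. Of 15 tested translation factors and other mRNAs with a known TOP motif, 15 rose in hypoxia at FDR below 0.05 (27.9% of all genes). Of these, 10 rose by more than 1.5-fold (19.5%). With 32-134D 14 fell (25.5%), 2 of them by more than 1.5-fold (13.7%). The medians were 0.67 and −0.42. EIF3E, a subunit of an initiation factor, had the largest rise (1.18 ± 0.0948) and EEF1D the smallest (0.21 ± 0.0755). EEF1G, also of that list, was listed at 0 in every library, while the related EEF1B2 and EEF1D had means of 265.4 and 366.9 CPM in normoxia. The 0 may come from how reads were counted and need not mean that the mRNA was absent, which was not tested.

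The chaperones and assembly factors of ribosomal proteins did not move as one. Of 10, 5 rose in hypoxia at FDR below 0.05 (27.9% of all genes), 2 fell (25.6%) and 3 did not pass the test. The 2 that fell are close to the share of all genes. NOB1, the nuclease of the last cleavage of small-subunit rRNA, rose by 1.03 ± 0.0846, and PDCD2, a chaperone of RPS2, by 0.81 ± 0.0849. LTV1, a factor of small-subunit assembly, fell from 20.6, 20.6 and 21.9 CPM to 14.5, 14.6 and 13.4 and stood at 20.1, 20.5 and 21.9 with 32-134D. HEATR3, which imports RPL5, fell by 0.50 ± 0.0992 in hypoxia and was higher by 0.57 ± 0.0963 with 32-134D.

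The changes were set beside the start of the mRNA. In the 46 tested members with a run of at least 5 pyrimidines over the first base or ending just before it the median change was 0.77 in hypoxia and −0.54 with 32-134D, and in the 18 with a shorter run it was 0.73 and −0.53. Both groups held members from the low to the high end of the range, from −0.17 to 1.11 and from −0.24 to 1.05 in hypoxia. Of the 5 that rose most, RPL39, RPS25 and RPL37A had runs of 22, 10 and 11 bases at the RefSeq start. The others, RPL17 and RPL10, had runs of 1 and 0. Of those that changed least, RPL36A, RPL22, RPL3 and RPS27L had runs of 13, 11, 5 and 1 bases. The run was scored at the annotated start alone. In RPL4 and RPL10A, counted with the shorter runs, a stretch of C and T followed a few bases downstream. The split therefore cannot separate mRNAs with a TOP motif from those without, and a link of the motif to the changes was not tested.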

How the data were processed

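RNA-seq of 9 Hep3B cultures was analysed from the authors' table of raw counts per Ensembl gene. Per the labels and the study's methods, the authors checked reads with FastQC, trimmed them with Bbduk, mapped them with STAR to GRCh38 (Ensembl release 100) and counted them with featureCounts. Versions and the strand setting are not given in the sources used here. The 9 columns were matched to samples by name, with 0 left unmapped. The labels call the 3 cultures of a group biological replicates.

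The authors' deposited counts were fitted in R 4.3.3 with edgeR 4.0.16 (TMM, quasi-likelihood test, 9 libraries in 1 fit, common biological coefficient of variation 10.5%) over 22672 genes with counts summing to at least 10. Adjusted p-values are Benjamini-Hochberg FDR values over all of them, and calls need an FDR below 0.05, with or without a fold change above 1.5. TMM-scaled CPM are the counts divided by the library size times its TMM factor, on the usual CPM scale. Positions, overlaps and lengths (the protein-coding transcript of median length) came from GENCODE version 29 (GRCh38), start-site windows from RefSeq (GRCh38.p14). The fit was tested on simulated counts with a small set of changed genes, up and down in equal number. Such counts do not test the choice of scaling.

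Named genes are RPL13A, the 5 members with the highest and lowest change in each comparison among those with a mean of at least 100 normalised counts, the 3 highest and 3 lowest per kb, stalk and MDM2-binding proteins, paralogs, fusion-encoded proteins, and the extremes of the exit-tunnel, mRNA-channel, Diamond-Blackfan, TOP and chaperone lists. A few named genes are not reported here. RPS27, RPS3 and RPL6, among others, were named because a result turned on them. Members and lists were chosen with earlier results of these data known. Alternatives were DESeq2 1.42.0, other scalings, filters, thresholds, 2-group fits, thinning, removal of a length and GC trend, the replicate number as a block, and fits that left out a library. Total counts of 6013980 to 40549699 set the precision, and a count of 0 allows up to 3 counts, which covers counting error only.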

Additional observations from a re-analysis of the deposited data

How the results depend on the processing

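Of the values that answer a comparison, 393 kept their direction and stayed within 1.5 times or 1 SD under the alternatives, 50 moved and 1 reversed. For the genes named by the rule 554 values kept their direction and their side of FDR and 1.5-fold in combination, 32 weakened, 4 strengthened and 4 reversed. Of the 554, 60 crossed FDR alone, 44 of them out of it, among them in hypoxia RPL3 (0.0285 to 0.0845 or more in 12 settings) and RPL36AL (0.0464 to 0.0901 or more in 13).

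In hypoxia, 69 members rose past FDR and 1.5-fold. The number was 3 above 2-fold, 29 with total library size (13.6% of all genes) and 33 with upper quartile scaling (14.1%). The medians with these 2 scalings were 0.541 and 0.563. Leaving out 1 library gave 63 to 72 (18.2% to 18.9% of all genes), or 75 to 77 by FDR alone (25.5% to 26.3%), and medians from 0.684 to 0.823. One member (RPS27L) fell by FDR with total library size or upper quartile scaling, 2 with the length and GC trend removed and 1 with that trend and the replicate block. In these settings 25.8% to 32.7% of all genes fell. With 32-134D the 25 members past both thresholds became 75 with no fold threshold (25.5% of all genes). The number was 0 above 2-fold and 0 with total library size (8.15% of all genes, median −0.341). It was 3 with upper quartile scaling (9.76%), 4 with 10 counts in every library (13.7%) and 7 after thinning (11.6%). It was 9 with DESeq2 (10.7%), its size factors (11.7%), 2-group fits (12.2%) or the trend removed without or with the block (13% and 12.7%). Of the 80 members, the 3, 4, 7 and 9 are below the share of all genes or close to it. Leaving out 1 library gave 4 to 40 (11% to 14.1% of all genes), or 73 to 77 by FDR alone (20.4% to 27.6%), and medians from −0.584 to −0.429. Against normoxia the 11 members higher by FDR became 23 with DESeq2 (9.65% of all genes), 44 without a low count filter (7.06%) and 6 with total library size (6.63%). The number was 1 with upper quartile scaling (5.67%) or a 2-group fit (4.97%), and 2 with the trend removed and the block (5.48%). It was 1 to 64 on leaving out 1 library (4.98% to 8.75%), with medians from 0.16 to 0.332. By construction, scaling by summed member counts took the medians to 0.004, 0.009 and 0.009 and left 0 members past both thresholds upward in hypoxia or downward with 32-134D. It gave 2 higher and 8 lower by FDR in hypoxia (7.21% and 51.2% of all genes), with 3 lower past both (44.7%). With 32-134D it gave 4 higher and 0 lower (41.1% and 4.84%), with 2 higher past both (33.3%), and against normoxia 0 higher (1.78%). On that scale RPL22 (−0.598), RPL3 (−0.520) and RPL36AL (−0.489) reversed in hypoxia, as did RPL3 with 32-134D (0.330). Adding pseudogene counts moved the RPL36AL to RPL36A difference in hypoxia from 0.41 to 0.49. The cause of the other movements was not tested.

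Same-numbered replicates did not deviate together (correlations of −0.15 to 0.07), so the numbers do not pair the samples. With the replicate block 69 members rose past both thresholds in hypoxia (18.9% of all genes, median 0.762) and 26 fell with 32-134D (13.3%, median −0.531). By FDR 6 rather than 11 were higher against normoxia (6.84%, median 0.227).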
